A study of Petunia x hybrida with 6 samples.

Results

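A group of 120 genes was abundant in the petunia corolla at 7AM and much lower at 7PM. They were chosen by measured levels, out of 17515 genes with at least 60 counts summed over 6 libraries and 35812 gene IDs in all. A member had a mean of at least 200 CPM (counts per 1000000, after scaling) at 7AM, at least 4 times its mean at 7PM, and a 7PM mean of at least 2 CPM. The last limit removed 0 genes. The 120 members were 17.4% of the 691 genes that reached 200 CPM at 7AM. Since the 7AM to 7PM difference chose them, its size is given below as a description and is not tested. CPM is not divided by gene length, so every rank and every order of genes below is one of counted reads, not of transcript molecules.

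The study sequenced polyadenylated RNA of the corolla, the whorl of petals, from Petunia x hybrida cultivar Mitchell. Plants stood in a greenhouse with 14 h of light and 10 h of dark. There were 3 libraries at 7PM, 1 h before the lights went off, and 3 at 7AM, 1 h after they came on. All 6 share cultivar, tissue and growth conditions. The labels do not give the age of the flowers, how many flowers or plants went into a library, or whether the replicates were separate plants, so the spread between replicates may be partly technical.

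Petunia flowers of this cultivar are white and release a benzenoid and phenylpropanoid scent at night. In plants, a circadian clock and light together set the hours at which many genes are transcribed. In petunia the clock protein LHY, which is made around dawn, is known to repress the scent regulator ODO1. The level of an mRNA at one hour reflects both its synthesis and its decay before that hour. None of the IDs below is tied to a gene name in the files, so no function is given to any of them, and neither the tissue nor any gene group could be checked by markers. In bulk tissue, fewer cells that hold a transcript and less of it per cell cannot be told apart.

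The libraries held 17410929 to 18040038 counts at 7PM and 16497054 to 17277765 at 7AM. Pairs of replicates were further apart than counting error allows, and the 7PM libraries more so: chi-square over its degrees of freedom was 22.9 to 31.1 within 7PM and 6.95 to 11.5 within 7AM. The TMM factors, which scale libraries so that most genes keep a similar level, were 0.854 to 0.892 at 7PM and 1.13 to 1.16 at 7AM. Scaling to library totals alone would move the median of all tested genes by -0.39 on the log2 scale, and changes are therefore given relative to TMM.

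Mean levels of the members at 7PM ran from 2.61 to 606 CPM with a median of 33.6 CPM, and at 7AM from 203 to 6167 CPM with a median of 351 CPM. The median member was 11.1-fold lower at 7PM, and the quartiles were 6.55-fold and 18.9-fold. On the log2 scale, 7PM over 7AM, the median was -3.48 in the members, -0.16 in the 571 other genes of at least 200 CPM at 7AM, and -0.05 over all tested genes. The group thus spans a wide range of falls rather than one common ratio. Of the 120 members, 40 were 4- to 8-fold lower, 41 were 8- to 16-fold lower and 21 were 16- to 32-fold lower. Another 10 were 32- to 64-fold lower and 8 were at least 64-fold lower.

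**Figure D1:**
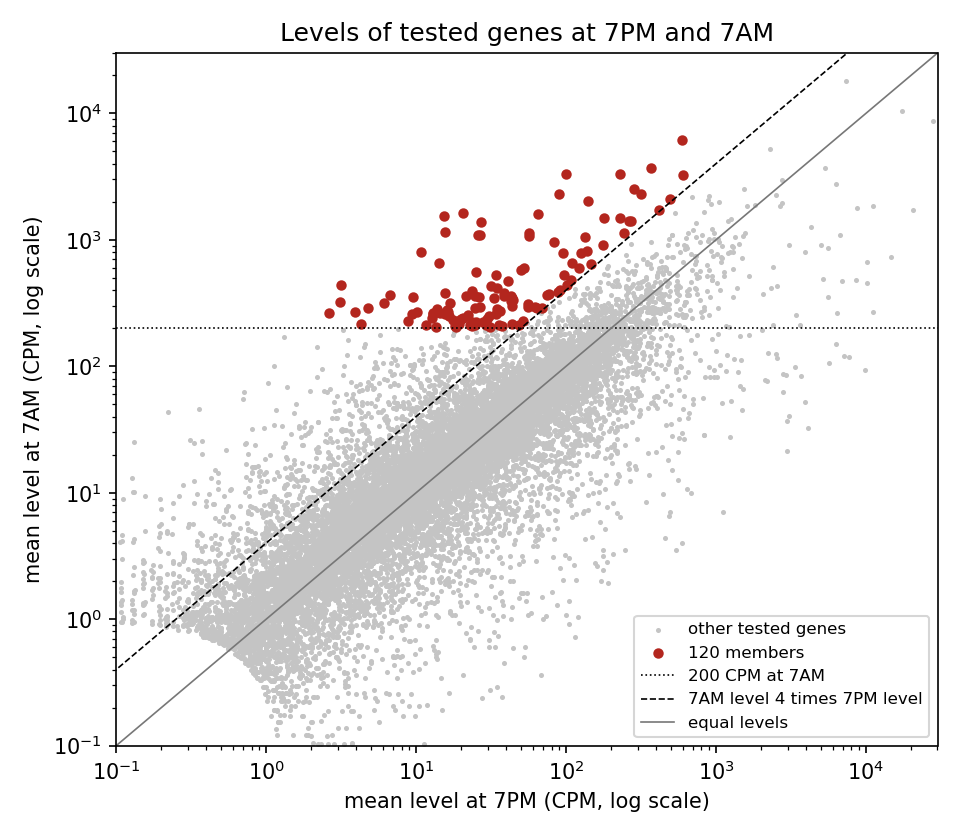
Mean level of each tested gene at 7PM (x axis) and at 7AM (y axis), in CPM on log scales. The 120 members (red) lie above the dotted line at 200 CPM and the dashed line at a 7AM level 4 times the 7PM level, and spread from 2.61 to 606 CPM along the 7PM axis.

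All 120 members passed the edgeR quasi-likelihood test as lower at 7PM, with a largest Benjamini-Hochberg adjusted p of 0.00511. Of all tested genes, 32.3% did. In all 120 members every 7PM library lay below every 7AM library, which was so in 36.8% of tested genes. The same contrast chose the members, so nothing is read from these counts. As a description of the same values, the lowest 7AM library exceeded the highest 7PM library 2.52-fold at the least and 7.64-fold in the median member. In 20 members that gap was under 4-fold.

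Ranked by mean CPM among tested genes, the members filled much of the top of the list at 7AM and little of it at 7PM. Of the 10 genes with the most reads at 7PM, 0 were members, against 5 of the 10 at 7AM. Among the first 100 genes, 0 were members at 7PM and 32 at 7AM. Among the first 500, 6 were members at 7PM and 92 at 7AM. The highest rank of a member was 200 at 7PM and 4 at 7AM. Most members were still well counted in the evening: 99 stood above the 15.2 CPM of the median tested gene at 7PM, and 21 did not.

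Peaxi162Scf00114g00810 was the most abundant member at 7AM. Its level was 318, 799 and 663 CPM in 7PM replicates 1 to 3, and 6380, 6502 and 5620 CPM in 7AM replicates 1 to 3. The 7PM libraries were uneven, with replicate 1 well under the other two, but all stayed far below the 7AM libraries. It was 10.4-fold lower at 7PM, a log2 difference of -3.38 ± 0.41 (SE, n = 3 libraries each), and moved to rank 206 at 7PM, against rank 4 at 7AM.

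Peaxi162Scf00738g00041 had 240, 558 and 313 CPM at 7PM and 3696, 3869 and 3536 CPM at 7AM. It repeated the pattern of an uneven evening and an even morning, and its log2 difference was -3.32 ± 0.36 (SE). Peaxi162Scf00413g00012 had 60.1, 87.7 and 152 CPM at 7PM and 3251, 3651 and 2982 CPM at 7AM. Here replicate 3 was the highest of the 7PM libraries. Its log2 difference of -5.04 ± 0.40 (SE) was the largest fall among the 6 most abundant members.

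The next 3 members by 7AM level differed in how even their evening level was. Peaxi162Scf00085g01215 had 195, 258 and 233 CPM at 7PM and 3415, 3594 and 2851 CPM at 7AM, a log2 difference of -3.84 ± 0.16 (SE). Peaxi162Scf00042g02314 had 540, 613 and 667 CPM at 7PM and 3126, 3636 and 3088 CPM at 7AM, a log2 difference of -2.44 ± 0.12 (SE). The libraries of each time lay close together in these 2 genes. Peaxi162Scf00319g00013 had 131, 402 and 325 CPM at 7PM and 2792, 2570 and 2203 CPM at 7AM, and again 7PM replicate 1 was the lowest. Its log2 difference was -3.14 ± 0.51 (SE).

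**Figure D2:**
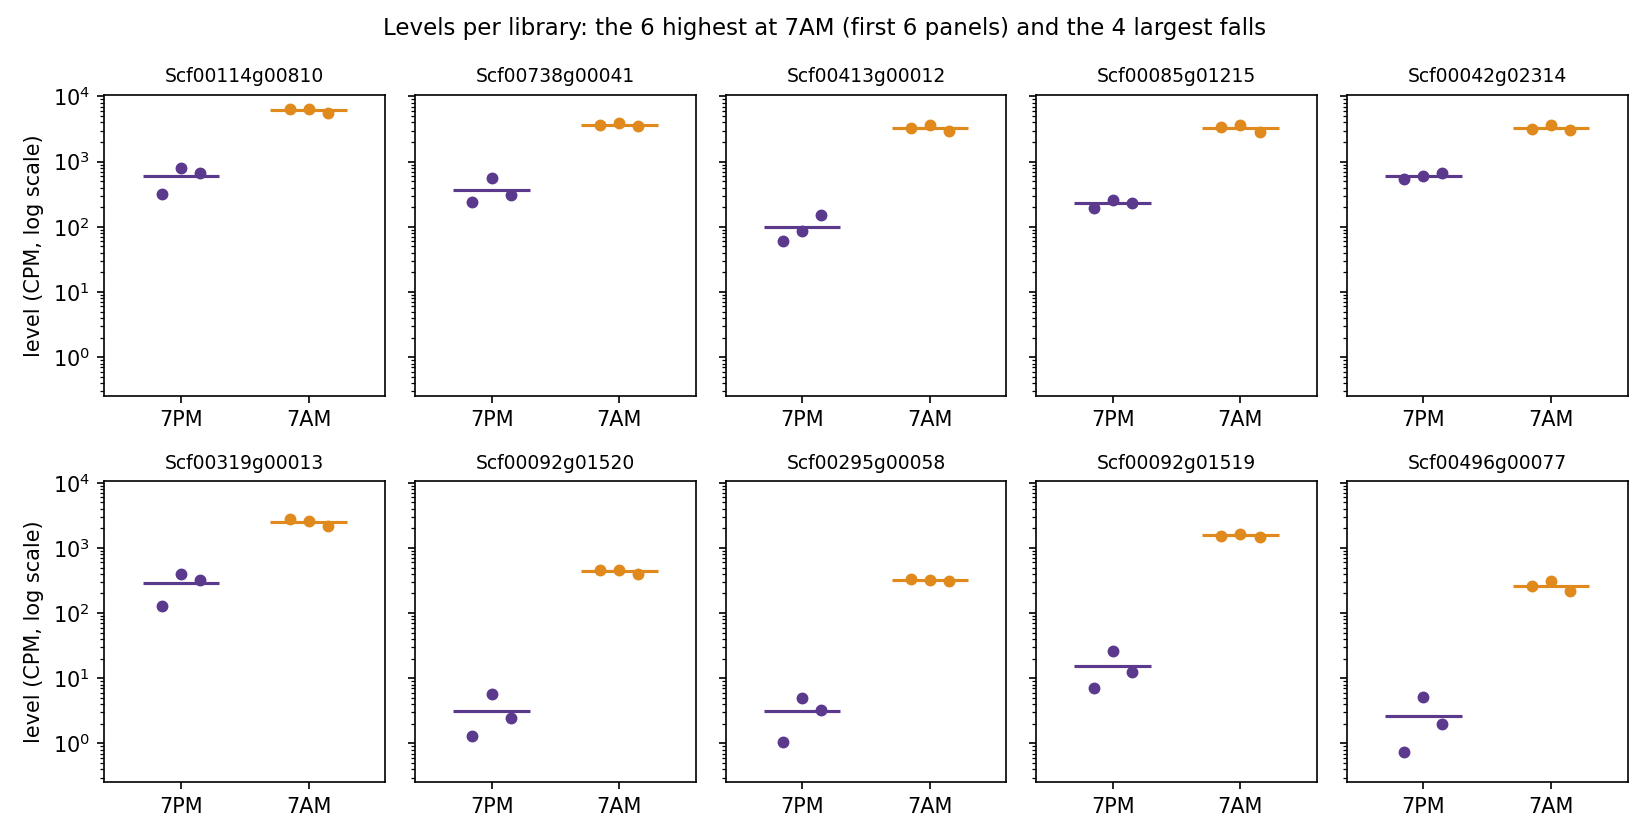
Level in each library (points, CPM, log scale) with the mean of each time (line), 7PM left and 7AM right, n = 3 each. The first 6 panels show the members with the most reads at 7AM and the last 4 those with the largest falls, whose 7PM libraries hold 0.746 to 26.4 CPM and spread far more than their 7AM libraries.

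Peaxi162Scf00092g01520 fell the most of all members. It had 1.31, 5.72 and 2.49 CPM at 7PM, from 21, 85 and 38 counts, and 461, 459 and 402 CPM at 7AM. It kept 0.719% of its 7AM level and was 139-fold lower at 7PM, or 232-fold without 7PM replicate 2, the highest of the 3. Peaxi162Scf00092g01519, the next ID on the same scaffold, had 7.03, 26.4 and 12.5 CPM at 7PM and 1527, 1662 and 1474 CPM at 7AM. That is 102-fold lower at 7PM, or 159-fold without 7PM replicate 2. Here and below, single genes are shown without their highest evening library, which enlarges the fold. Leaving out the lowest evening library would make the fold smaller instead.

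The other 2 of the 4 largest falls were in less abundant genes. Peaxi162Scf00295g00058 had 1.06, 4.98 and 3.28 CPM at 7PM and 337, 323 and 310 CPM at 7AM, and was 104-fold lower. Peaxi162Scf00496g00077 had 0.746, 5.11 and 1.97 CPM at 7PM, from 12, 76 and 30 counts, the smallest counts of any member, and 260, 314 and 219 CPM at 7AM. It was 101-fold lower at 7PM, or 195-fold without 7PM replicate 2. All 4 were lowest in 7PM replicate 1 and highest in 7PM replicate 2, so the size of their fall depends on which evening library is used, while every evening library lay far below every morning one.

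At the other end, the members that kept the highest evening level were among the smaller falls, Peaxi162Scf00114g00810 excepted. Peaxi162Scf00042g02314 stood highest, at 606 ± 63.9 CPM at 7PM against 3283 ± 306 CPM at 7AM (SD, n = 3). Peaxi162Scf00071g00030 had 476, 549 and 465 CPM at 7PM and 2284, 2323 and 1728 CPM at 7AM, and kept 23.5% of its 7AM level. Peaxi162Scf00006g00535 had 481, 411 and 365 CPM at 7PM and 1762, 1592 and 1763 CPM at 7AM. It kept 24.6%, the most of any member, which places it just inside the fold limit at 4.07-fold.

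Peaxi162Scf00069g00151 was the second member just inside, at 68.8 ± 11.9 CPM at 7PM and 290 ± 2.80 CPM at 7AM (SD, n = 3), 4.21-fold lower at 7PM. Just outside the limit were Peaxi162Scf00015g00237 at 3.99-fold and Peaxi162Scf01316g00017 at 3.87-fold. At the limit on the 7AM level, Peaxi162Scf00258g00921 was just inside with 31.0 ± 2.92 CPM at 7PM and 203 ± 16.9 CPM at 7AM (SD, n = 3). Peaxi162Scf00047g10224 was just outside with 13.0 ± 2.90 CPM at 7PM and 199.9 ± 12.3 CPM at 7AM (SD, n = 3). On the measure that each limit uses, the genes on its 2 sides differed by less than their spread between libraries. In 6 members the fold dropped below 4, to 3.56 at the lowest, when 1 library was left out.

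Together the members held a sizeable part of the morning reads. Their share of all counts was 0.676%, 0.871% and 0.804% in 7PM replicates 1 to 3, and 9.84%, 10.3% and 9.25% in 7AM replicates 1 to 3. The mean was 0.784 ± 0.099% at 7PM and 9.80 ± 0.54% at 7AM (SD, n = 3). The shares are of library totals, so this 12.5-fold ratio includes the difference in composition that TMM takes out. As summed TMM-scaled levels the members had 8994 ± 1321 CPM at 7PM and 85784 ± 5611 CPM at 7AM (SD, n = 3), a 9.54-fold ratio. For comparison, the 207 genes that met the same limits in the opposite direction held 28.3 ± 0.36% of counts at 7PM and 3.00 ± 0.43% at 7AM (SD, n = 3).

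The reads of the group were concentrated in few members. The first member alone held 0.0515% of all counts at 7PM and 0.705% at 7AM. The 10 most abundant members held 0.281 ± 0.068% at 7PM and 3.54 ± 0.29% at 7AM (SD, n = 3), which is 36.1% of the morning reads of the group. The first 20 held 53.4% of those reads. In the other direction, the 79 members under 500 CPM at 7AM held 0.212 ± 0.014% at 7PM and 2.63 ± 0.13% at 7AM (SD, n = 3). The median member held 0.00293% at 7PM and 0.0401% at 7AM.

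**Figure D3:**
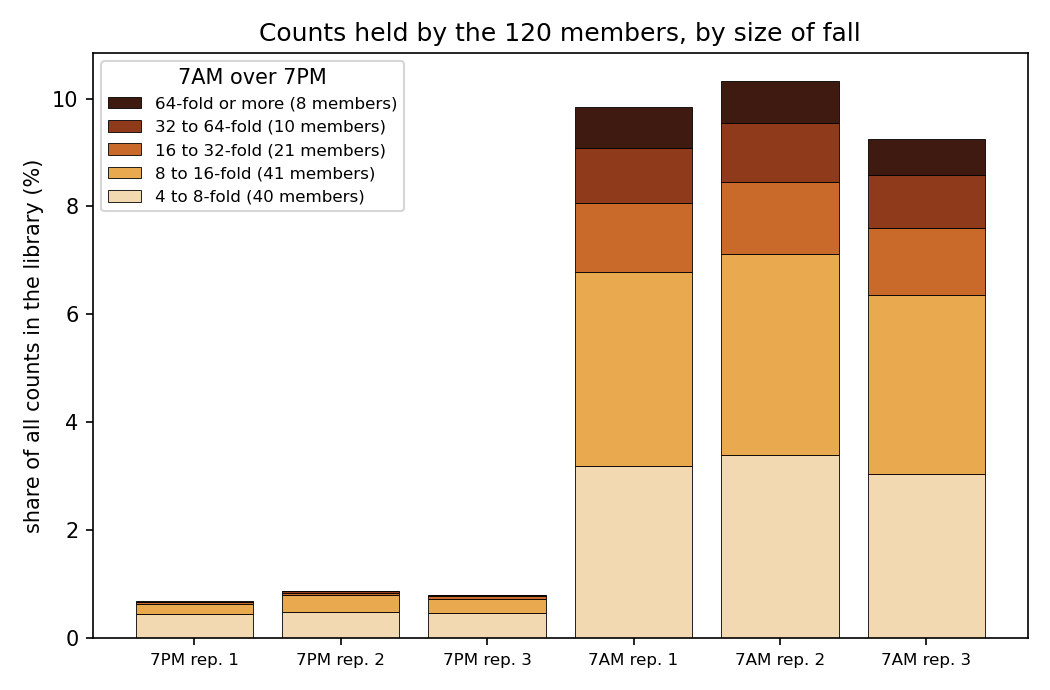
Share of all counts (%) held by the 120 members in each library, stacked by the size of the fall. The bars reach 0.676 to 0.871% in the 7PM libraries and 9.25 to 10.3% in the 7AM libraries, and the members that were 4- to 16-fold lower make up most of both.

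As ratios, members with small and with large falls differed more in evening level than in morning level. Grouping by the size of the fall partly builds this in. The 40 members that were 4- to 8-fold lower had medians of 82.8 CPM at 7PM and 377 CPM at 7AM. The 8 members that were at least 64-fold lower had medians of 7.31 CPM at 7PM and 620 CPM at 7AM. By share, the 40 members held 0.459 ± 0.021% of counts at 7PM and 3.21 ± 0.18% at 7AM (SD, n = 3), while the 8 held 0.0065 ± 0.0034% at 7PM and 0.735 ± 0.062% at 7AM (SD, n = 3). The smaller falls therefore made up most of what the group still held in the evening.

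The fall was also read in libraries left out of the choice. This is a description and no independent support, since the limits themselves were set with all 6 libraries known and all 6 were scaled together. The limits were applied to 2 libraries of each time, and the fold was then read in the 2 libraries left out, for each of the 9 ways of leaving out 1 library of each time. Each choice took 116 to 123 genes, of which 112 to 118 were among the 120 members. The left-out 7PM library was at least 4-fold below the left-out 7AM library in 105 to 116 of the chosen genes. The lowest fold met in any left-out pair was 1.65, so all chosen genes were lower at 7PM there too. The median fold in the left-out libraries was 8.79 to 14.6, against 9.99 to 11.8 in the libraries used for the choice. The lowest median came with 7PM replicate 2 left out and the highest with 7PM replicate 1 left out. One library per time allows no test.

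The members were more uneven between evening libraries than between morning libraries. Their median coefficient of variation, the SD as a percentage of the mean over 3 libraries, was 22.1% at 7PM and 8.85% at 7AM. It was higher at 7PM in 103 of 120 members. In the 571 other genes of at least 200 CPM at 7AM the medians were 9.63% at 7PM and 5.46% at 7AM, with the 7PM value higher in 410. The 443 genes that met the fold and evening limits but lay under 200 CPM at 7AM had medians of 21.1% at 7PM and 9.74% at 7AM, near those of the members. Counting error alone would give the median member 4.40% at 7PM and 1.21% at 7AM, so most of this spread lies beyond it. Since members were picked for a low evening mean, their evening spread is not fully independent of the choice.

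The unevenness had a direction. At 7PM, replicate 1 was the lowest library in 75 of 120 members (62.5%), against 42% of the other genes of at least 200 CPM at 7AM and 34.4% of all tested genes. Replicate 2 was the highest in 61 members. At 7AM, replicate 2 was the highest in 85 members (70.8%), against 39.4% of those other genes and 34.2% of all tested genes, and replicate 3 was the lowest in 76 members. With library totals in place of TMM, 7PM replicate 1 was the lowest in 71 members and 7AM replicate 2 the highest in 77. In the less abundant falling genes, 58.5% were highest in 7AM replicate 2, or 54.9% with library totals. At 7PM, 41.8% of them were lowest in replicate 1, close to the 42% of the other genes of at least 200 CPM at 7AM. With library totals 37.5% were lowest in 7PM replicate 1 and 35.4% in 7PM replicate 2. What set the libraries of one time apart was not tested.

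As a ratio, the evening libraries lay further apart in members with larger falls, though the same 7PM values enter both the ratio and the fall. The median ratio of 7PM replicate 2 to replicate 1 was 1.12 in members 4- to 8-fold lower, 1.22 in those 8- to 16-fold lower and 1.31 in those 16- to 32-fold lower. It was 2.09 in those 32- to 64-fold lower and 3.78 in the 8 members at least 64-fold lower. In these 8 members the ratio ran from 2.06 to 6.85, and 7PM replicate 1 was the lowest and replicate 2 the highest in 8 of 8. As an amount the difference did not grow with the fall. Replicate 2 minus replicate 1 had a median of 1.80% of the member's own 7AM level in members 4- to 8-fold lower, with a range of -9.38% to 20.7%. From the next class up the medians were 1.70%, 1.03%, 1.45% and 1.23%, and in the 8 largest falls the range was 1.00% to 1.65%. A larger fall leaves a smaller evening level, which caps this amount, so the narrow range there is partly built in. The cause of the difference was not tested. Over all members the median fold was 10.2 without 7PM replicate 1 and 11.1 without 7PM replicate 2.

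**Figure D4:**
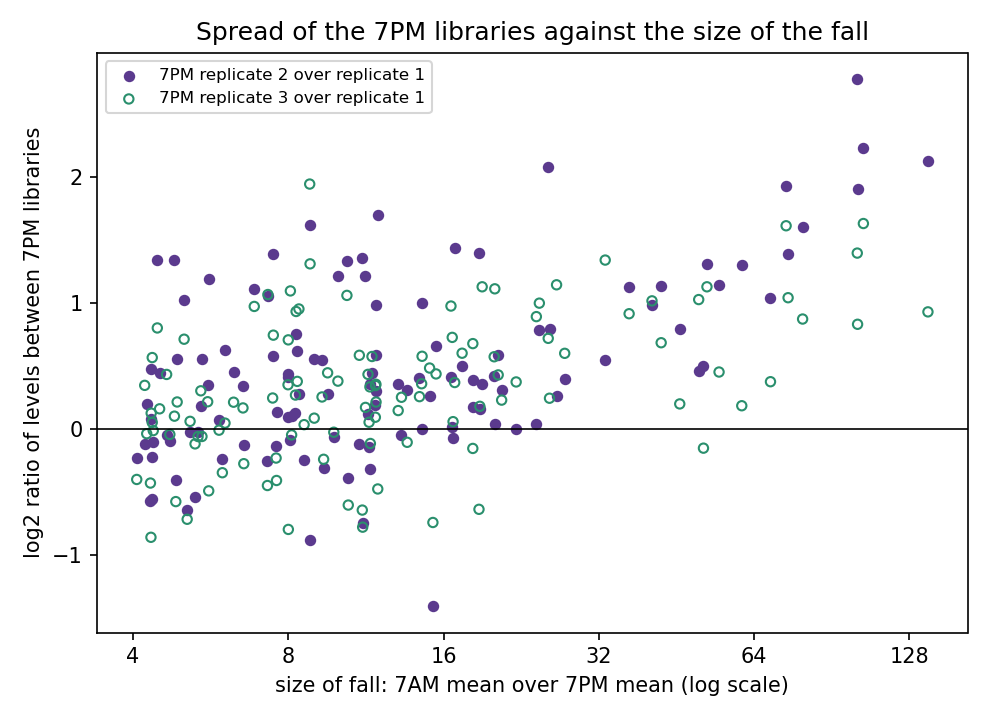
Log2 ratio of 7PM replicate 2 (filled) and of 7PM replicate 3 (open) to 7PM replicate 1 against the size of the fall (7AM mean over 7PM mean, log scale), 1 point of each kind per member. The filled points scatter around and above 0 for small falls and lie above 1 for the 8 members at least 64-fold lower, where the ratio was 2.06 to 6.85.

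In 9 members, leaving out 1 library moved the fold by over 1.5 times, in 8 of them 7PM replicate 2 and in 1 of them 7PM replicate 3. Without the lowest of 3 libraries a mean rises at most 1.5 times, so only leaving out a high library can do this. Leaving out any 7AM library did so in 0 members. Replicate 1 was often the lowest at 7PM, so its absence here is largely built in. Peaxi162Scf00413g00118 was the most uneven in the evening, with 13.1, 7.13 and 50.6 CPM at 7PM and 219, 208 and 196 CPM at 7AM. It was 8.80-fold lower at 7PM, or 20.5-fold without 7PM replicate 3. Peaxi162Scf00376g00210 was the most uneven in the morning, with 3.86, 16.4 and 6.36 CPM at 7PM and 246, 269 and 163 CPM at 7AM. Its fall was 25.5-fold, or 44.2-fold without 7PM replicate 2. Peaxi162Scf01056g00030 came next in the morning, with 40.9, 31.3 and 27.0 CPM at 7PM and 259, 360 and 418 CPM at 7AM. In this gene 7PM replicate 1 was the highest of the evening libraries, and 7AM replicate 1 the lowest of the morning ones.

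The 120 members came from 100 scaffolds by their IDs, and 35 members shared one of 15 scaffolds with another member. Most of these scaffolds held 2 members (12 of them), 2 held 3 members and 1 held 5. Order along a scaffold is taken from the number in the ID, which the files do not tie to coordinates. By that order 8 members stood next to another member among tested genes. The 214 non-members next to a member were lower at 7PM by edgeR in 41.1% and higher in 24.8%, where all tested genes were lower in 32.3% and higher in 27.5%. At least 4-fold falls of the mean were seen in 9.81% of these neighbours and in 6.25% of all tested genes.

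Scaffold 316 held 5 members among 25 tested genes. Peaxi162Scf00316g00058 had 7.34, 9.69 and 11.1 CPM at 7PM and 263, 214 and 297 CPM at 7AM. Its neighbour Peaxi162Scf00316g00059 had 22.9, 22.9 and 29.7 CPM at 7PM and 573, 520 and 576 CPM at 7AM. They were 27.5-fold and 22.1-fold lower at 7PM. The other 3, chosen for description after their values were seen, were Peaxi162Scf00316g00328 at 24.2-fold, Peaxi162Scf00316g00411 at 49.96-fold and Peaxi162Scf00316g00521 at 19.0-fold. All 5 were lowest in 7AM replicate 2, which was so in 14 of the 120 members. All 5 were also highest in 7PM replicate 3, which was so in 41 of the 120 members. Of the 20 other tested genes of the scaffold, 9 were lower at 7PM and 5 higher by edgeR. The 5 members together held 0.0097% of counts at 7PM and 0.284% at 7AM.

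Scaffold 439 held 3 members whose libraries kept nearly the same proportions. Peaxi162Scf00439g00064 had 8.96, 23.6 and 5.77 CPM at 7PM and 234, 279 and 206 CPM at 7AM. Peaxi162Scf00439g00071, next to it, had 21.0, 68.4 and 15.1 CPM at 7PM and 413, 452 and 383 CPM at 7AM. Peaxi162Scf00439g00091, added after its values were seen, had 18.9, 48.4 and 12.1 CPM at 7PM and 297, 336 and 251 CPM at 7AM. All 3 were highest in replicate 2 and lowest in replicate 3 at both times. They were 18.7-fold, 11.9-fold and 11.1-fold lower at 7PM, and 32.5-fold, 23.0-fold and 19.0-fold without 7PM replicate 2. Of the 14 other tested genes of the scaffold, 8 were lower at 7PM and 3 higher by edgeR. Peaxi162Scf00439g00082, between Peaxi162Scf00439g00071 and Peaxi162Scf00439g00091 by ID, had means of 7.55 CPM at 7PM and 197.9 CPM at 7AM. It missed only the 200 CPM limit.

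The remaining neighbouring pair, Peaxi162Scf00313g00055 and Peaxi162Scf00313g00066, had 12.9 ± 2.59 and 44.6 ± 9.14 CPM at 7PM, and 263 ± 46.9 and 333 ± 24.6 CPM at 7AM (SD, n = 3). Both were highest in replicate 2 at both times. Of the 28 pairs of members on one scaffold, 8 (28.6%) had the same order of libraries at both times, against 10.3% of pairs on different scaffolds. At 7PM alone the shares were 42.9% on one scaffold and 23.7% on different scaffolds, and at 7AM alone they were 42.9% and 34.4%. Scaffolds 316 and 439 give many of the 28 pairs, and most of the pairs with the same order at 7PM, at 7AM and at both times. The higher shares therefore do not describe the shared scaffolds in general. All members of a scaffold had one order of libraries at 7PM on 4 of the 15 shared scaffolds, at 7AM on 6, and at both times on 3. Members next to each other may also share reads, where one transcript is split over several gene models or copies are near-identical. The counts cannot tell these from separate genes, and this was not tested.

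**Figure D5:**
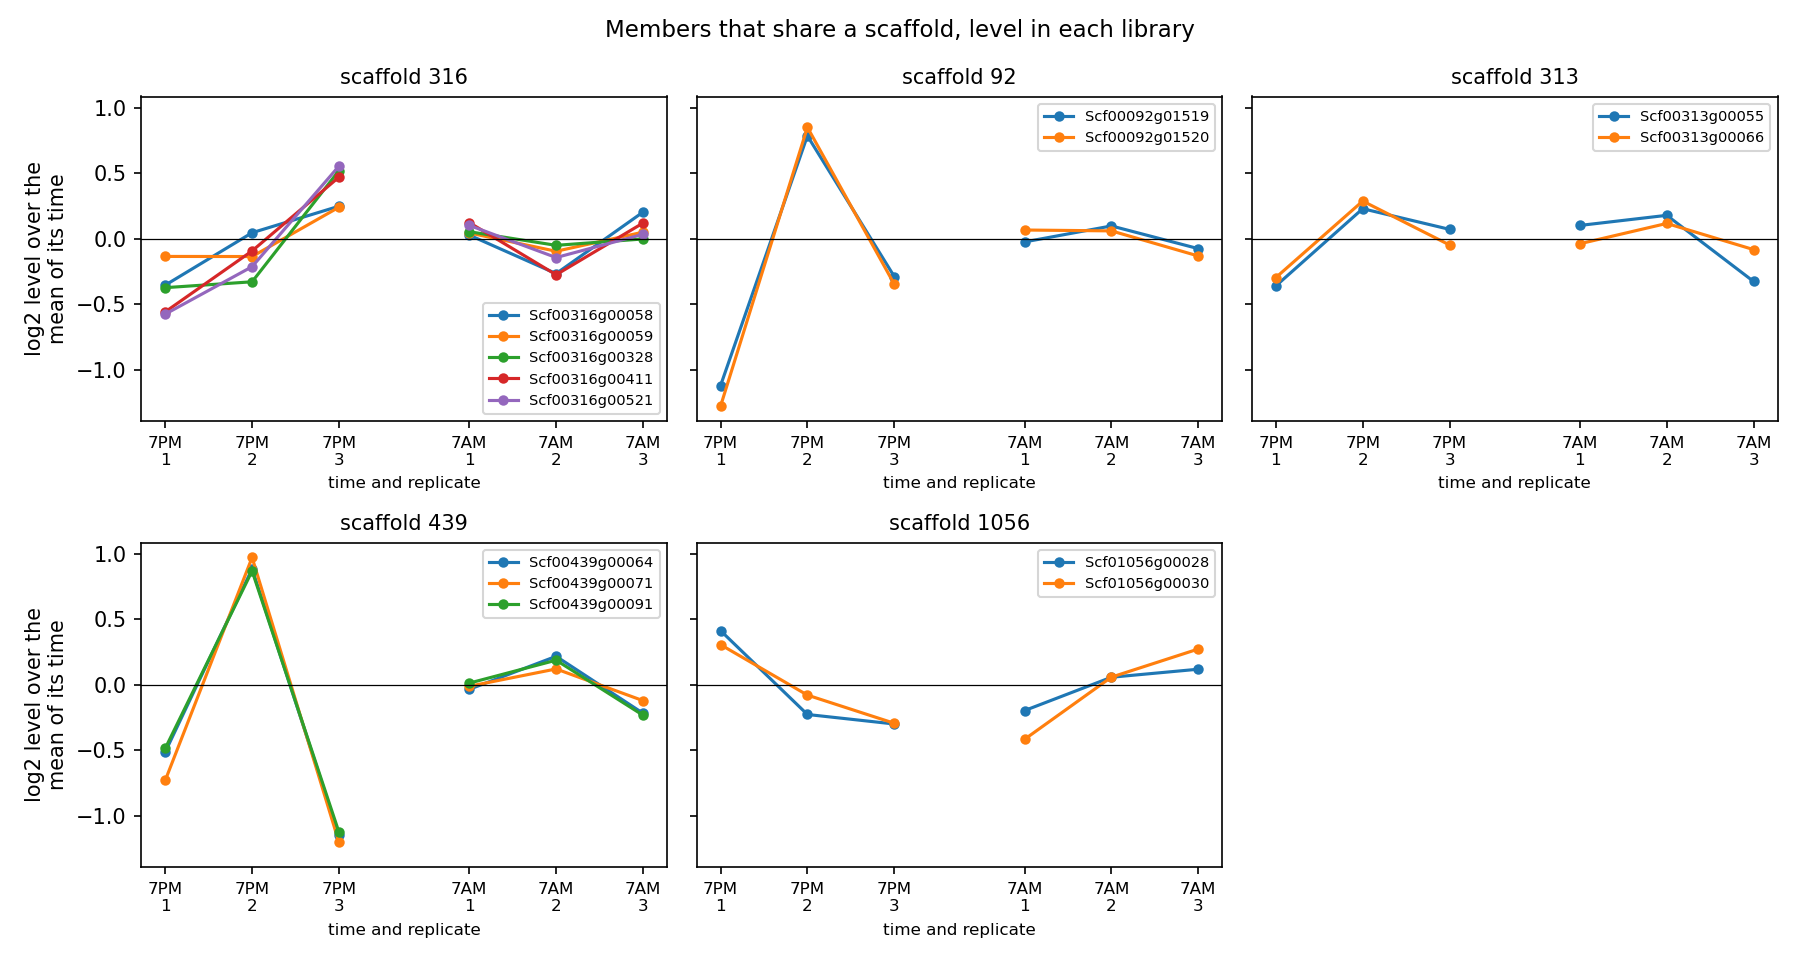
Level of members in each library on the scaffold with the most members (316) and on the 4 scaffolds whose members shared one order of libraries at 7PM (92, 313, 439 and 1056), as log2 of the level over the mean of its own time (7PM replicates left, 7AM replicates right). The 4 were picked for that shared order out of 15 shared scaffolds, so their likeness at 7PM is no result, and the lines of scaffold 316 dip in 7AM replicate 2, where 85 of the 120 members are highest.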

How the data were processed

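The authors deposited a table of raw counts, 1 row per gene ID and 1 column for each of 6 corolla libraries. The series' design text names a Petunia axillaris genome as the alignment target. The tools cutadapt, TopHat2 and HTSeq come from the submitters' processing notes. For genome release, annotation, strand and tool versions, no value is given in the sources used here. Since the plant is Petunia x hybrida, reads of genes that differ from the Petunia axillaris sequence may be undercounted. Columns were matched by the sample descriptions.

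Genes with 60 or more summed counts were scaled with TMM and tested by an edgeR 4.0.16 quasi-likelihood fit of 7PM against 7AM (R 4.3.3, Benjamini-Hochberg adjustment, threshold 0.05), after a test of the script on simulated data. They held at least 99.9% of every library. Log2 differences are ratios of mean CPM. Their SE reflects how log2 CPM, with a prior count of 2, varied between libraries. Named genes followed a written rule: the 6 highest at 7AM, the 4 largest falls, the 4 highest at 7PM, those at the limits, the 2 most uneven at each time, and members next to a member. The members and rules were chosen with earlier results of these data known. Alternatives were other scalings, filters and tests (DESeq2 1.42.0, limma-voom 3.58.1), the replicate number as a block, and each library left out.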

Additional observations from a re-analysis of the deposited data

How the results depend on the processing

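All 120 members were called lower at 7PM under each of the 14 alternative fits, and the 23 named members kept their direction and call in all 322 refits. The same contrast in the same libraries chose the members, so no support is drawn from these counts. With library totals, 9345 genes were lower and 2825 higher at 7PM over all tested genes, against 5657 and 4813 with TMM, and the median log2 difference of the members was -3.87 instead of -3.48. With DESeq2 size factors 5140 were lower and 5307 higher, and with the DESeq2 test 4875 and 5196, so which direction held more genes depended on the method. The rule took 161 genes with library totals, all 120 members among them. With DESeq2 size factors it took 117 genes and lost 3 members. The rule took 91 genes when every library had to pass the limits, 144 at a fold of 3 and 80 at a fold of 8. It took 118 to 121 with 1 library left out. With the 50 most abundant genes left out, 5 members among them, the other 115 members held 0.834% of the remaining counts at 7PM and 8.58% at 7AM. The labels do not say whether replicate numbers pair the samples. Departures from the group means correlated at -0.09, 0.13 and 0.12 between libraries of one number, across 10905 genes, which are not independent. Between libraries of unlike numbers they correlated at -0.28 to 0.20. Departures within 3 libraries are tied to each other, so these values cannot decide whether samples were paired. With the replicate block, 5330 genes were lower and 4503 higher, and 120 members were called. The count of members lowest in 7PM replicate 1, 75 with TMM and 71 with library totals, was added after seeing the data. The 3 members with the lowest evening levels rest on 12 to 85 counts per 7PM library, which limits the precision of their folds.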
